A study of Mus musculus with 6 samples.

Results

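The genes described here encode the Rab GTPases of the mouse and the enzymes that attach lipids to them, measured by RNA-seq in testes of mice fed either ethanol or a control liquid diet for 16 weeks. Members were all protein-coding genes named Rab with a number, the Rab-like genes Rabl2, Rabl3 and Rabl6, and 7 genes for prenylation: Rabggta, Rabggtb, Chm, Chml, Fnta, Fntb and Pggt1b. This gave 69 of the 45777 genes in the table, 62 of them Rab or Rab-like genes. The set was chosen with results of the diet comparison known, so the diet differences of its members, and the calls that the test across all genes makes among them, are given as a description. Each diet had 3 libraries of total RNA from wild-type testis. The labels give neither strain nor age, and all mice, controls included, first received the control liquid diet for acclimatization. Whether the 3 libraries come from 3 different mice is not stated, and the spread between them may be technical.

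Rab proteins are small GTPases of the Ras superfamily that act as switches of membrane traffic: bound to GTP on a membrane, each recruits motors, tethers and fusion factors for a particular organelle. To sit in the membrane they need geranylgeranyl lipids on cysteines at their carboxyl end. Geranylgeranyl transferase type II, a dimer of the subunits encoded by Rabggta and Rabggtb, adds these lipids to Rab proteins presented by an escort protein, encoded by Chm or Chml. Fnta encodes the alpha subunit that farnesyltransferase shares with geranylgeranyl transferase type I; Fntb and Pggt1b encode their respective beta subunits, and both enzymes act on proteins with a single cysteine near the end, the CAAX box. In the testis, membrane traffic serves the acrosome, which spermatids build from Golgi vesicles, the sperm tail, and the junctions that Sertoli cells form and dissolve around germ cells.

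The last 9 codons of the coding sequence, stop codon included, show the site on which these enzymes act. They were read from GENCODE M21 transcripts of GRCm38, the assembly also called mm10, and are written 5′ to 3′ on the coding strand with the cysteine codons TGC and TGT in capitals. The genes shown are abundant examples of each type of end and some of those whose values are discussed further on.
Rab22a: tcggagccaaagcgaagcTGCTGCtga
Rab2a: cagcaggcagggggaggcTGCTGTtga
Rab1b: aagcctgctagcggtggcTGCTGCtag
Rab10: acgggctggaagagcaagTGCTGCtga
Rab31: ttgcaagccagccgtcggTGCTGCtga
Rab6a: gtcaatgaaggcggcTGTtccTGCtaa
Rab43: gcggagagctggggcTGTgggTGCtga
Rab20: cagactagatccgggTGTTGTgcctaa
Rab34: aagaaaaaggccacaTGTTGTccctga
Rab5c: agccggagccagTGCTGCagcaactga
Rab11a: aaggtgcagTGCTGTcagaacatctaa
Rab30: tatttgactTGTTGTaatttcaactaa
Rab28: cggagctccatgTGTgcagtgcagtga
Rab8a: agcttcttccggTGCagtctcctgtga
Rab13: aagaagaacaagTGCttgttaggctga
Rab40c: tctcggagcaacTGCaagatctcctag
Rabl2: acgaccaagagcccatctccttcctaa
Rabl3: gcactgaagaacttccacTGTgactga

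All 69 members were matched to a coding transcript with an intact reading frame. Of the 62 Rab and Rab-like genes, 50 ended with a pair of cysteine codons within the last 5: 15 with the pair at the very end, as in Rab22a and Rab10, 20 with another codon between them, as in Rab6a, and the rest with the pair followed by 1, 2 or 3 other codons, as in Rab20, Rab5c and Rab11a. Another 9 had a lone cysteine codon in 4th place from the end (the CAAX position), among them Rab8a, Rab8b, Rab13, Rab28 and Rab40c. The codons alone do not tell which of the enzymes acts on a given protein. The 3 Rab-like genes had neither form: Rabl2 and Rabl6 had no cysteine codon among their last 5, and Rabl3 had it in 2nd place from the end.

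Transcript levels are compared between genes in TPM, a share of all transcripts in a library that corrects for transcript length. Genes ending in a pair of cysteine codons supplied 69.1 to 71.0% of the summed Rab and Rab-like TPM in control libraries and 70.6 to 71.6% in ethanol libraries. The 9 genes with the lone cysteine codon supplied 19.0 to 19.9% and 18.7 to 19.6%, most of it from Rab28 and Rab8a. For both forms the ranges of the diets overlapped. The summed TPM of all Rab and Rab-like genes was 1024, 1080 and 997.0 in controls 1, 2 and 3. With ethanol it was 1094, 1077 and 1046, and the ranges overlapped.

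**Figure D1:**
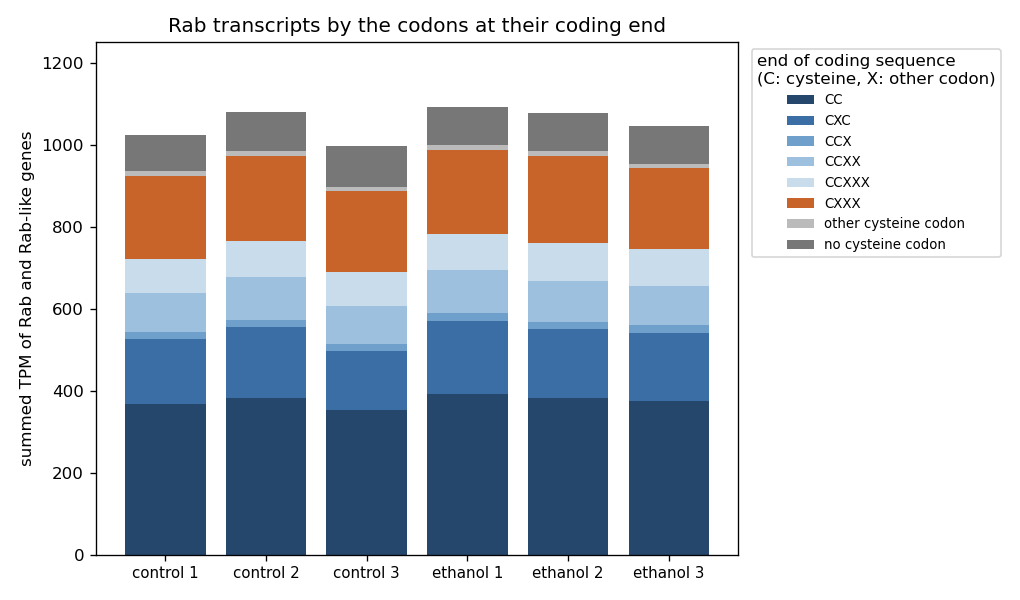
Summed TPM of the 62 Rab and Rab-like genes (vertical axis, from 0) in each of the 6 libraries, stacked by the codons at the end of the coding sequence (C, cysteine codon; X, any other codon). The stacks have similar heights, between 997.0 and 1094 TPM, and similar proportions in both diets.

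Expression ran over more than 3 orders of magnitude within the set. Of the 69 genes, 7 had a mean above 50 TPM, 27 lay between 10 and 50, 17 between 1 and 10, and 18 below 1. The highest means were those of Fnta at 109.2 TPM and Rab28 at 106.7 TPM, the small GTPase best known from photoreceptor cilia, followed by Rab22a of early endosomes at 89.7 TPM and Rab2a of the ER to Golgi route at 73.6 TPM. Rab1b, which starts traffic from the ER, stood at 62.5 TPM, Rab11a of recycling endosomes at 57.8 TPM and Rabl2 at 57.6 TPM. Rabl2 encodes a protein of intraflagellar transport that mice need for a normal sperm tail. Rab31, Rab5c, Rab8a, Rabl6 and Rab6a followed at 46.2, 45.5, 40.4, 35.8 and 34.2 TPM. The 10 highest Rab and Rab-like genes held 58.5% of all Rab and Rab-like TPM.

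The order among the highest genes did not hold in every library. Fnta was at 114.4, 112.05 and 104.7 TPM in controls and 107.4, 112.5 and 104.1 TPM with ethanol, so Rab28 exceeded it in library 3 of both diets. Rab28 was at 107.2, 105.9 and 107.1 TPM in controls and 106.0, 109.2 and 104.5 TPM with ethanol, and Rab22a at 87.7, 90.4 and 91.4 TPM and 88.0, 90.04 and 90.8 TPM, so each Rab28 value was above every Rab22a value. Rabl2 at 54.9, 57.8 and 60.4 TPM and 57.0, 59.0 and 56.3 TPM overlapped both Rab11a, at 53.9, 58.1 and 55.4 TPM and 58.4, 61.4 and 59.3 TPM, and Rab1b, at 65.2, 61.8 and 60.0 TPM and 64.01, 62.2 and 61.7 TPM. Rab31 and Rab5c overlapped each other as well.

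**Figure D2:**
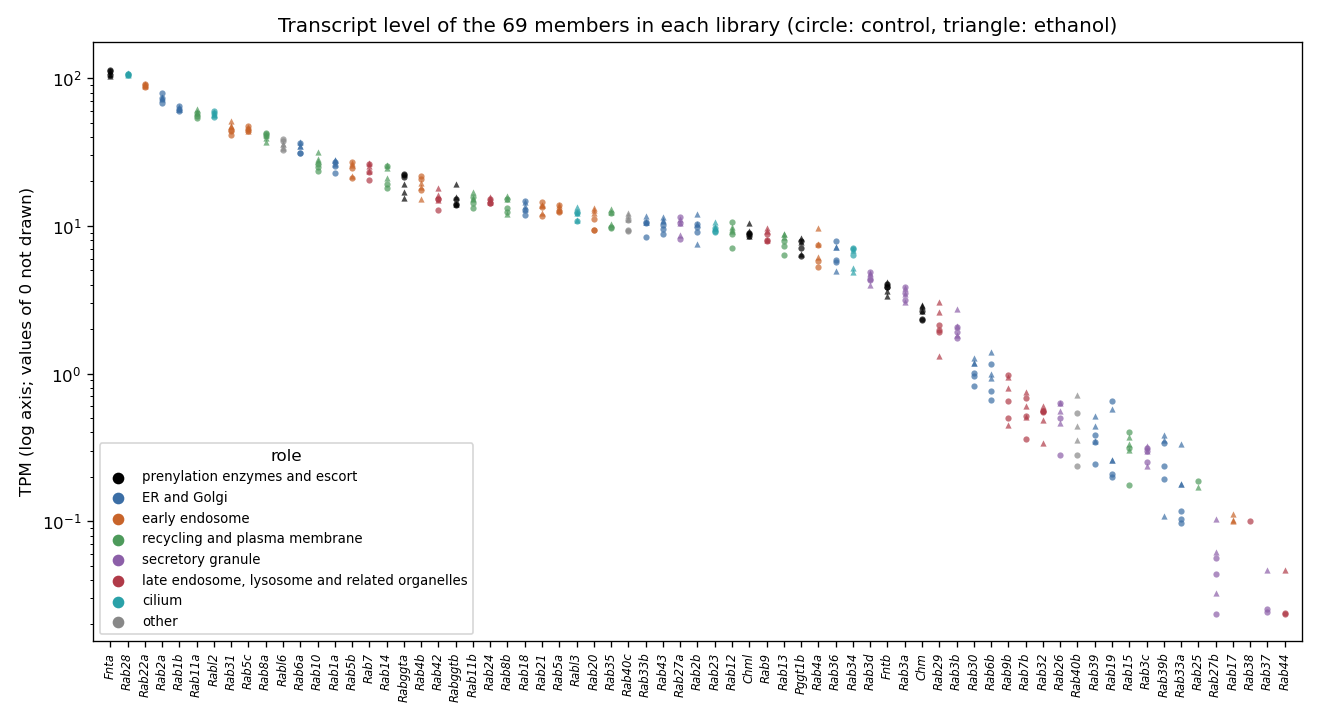
TPM (log axis) of the 69 members in each library, ordered by mean and coloured by role; circles are control and triangles ethanol libraries, and values of 0 are not drawn. Fnta and Rab28 are highest, and 18 genes lie below a mean of 1 TPM.

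By the compartment for which each Rab is best known, genes of early endosomes supplied 25.6 to 25.8% of Rab and Rab-like TPM in controls and 25.2 to 25.9% with ethanol. Genes of the ER and Golgi supplied 22.9 to 24.2% and 23.6 to 24.2%, those of recycling and the plasma membrane 19.0 to 19.5% and 19.6 to 20.1%, and the 5 cilium genes 17.8 to 19.6% and 17.6 to 18.2%. Secretory granule genes, the Rab3 and Rab27 groups with Rab26 and Rab37, supplied only 1.79 to 2.15% and 1.85 to 2.05%. Recycling Rabs were the group whose ethanol range lay above the control range, by less than a percentage point.

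Within families, 1 paralog usually prevailed. Rab6a held 97.2% of Rab6 TPM over Rab6b, Rab27a 99.5% over Rab27b, Rab7 97.7% over Rab7b, Rab40c 96.2% over Rab40b and Rab2a 88.2% over Rab2b. Rab8a held 74.2% over Rab8b, Rab1b 70.4% over Rab1a, and Rab22a 66.0% over the related Rab31. The share of Rab31 in that last pair was 31.1 to 33.5% in controls and 34.4 to 37.0% in ethanol libraries, which did not overlap. The Rab5 genes were more evenly spread, with 54.7% for Rab5c, 29.5% for Rab5b and 15.8% for Rab5a. Among the Rab3 genes of regulated exocytosis, Rab3d held 43.6%, Rab3a, known from synaptic vesicles and the acrosome reaction, 33.6%, Rab3b 20.01% and Rab3c 2.78%. Reads shared by close paralogs could be assigned to either, which limits these shares.

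The X-linked members had a lower median level than the autosomal ones. As background, the X chromosome is silenced in meiotic spermatocytes, and its part in these levels was not tested. The 5 X-linked genes had a median of 0.722 TPM, and the 64 autosomal genes a median of 10.4 TPM. Chm on the X was at 2.62 TPM and its relative Chml, whose coding sequence lies in 1 exon on chromosome 1, at 9.11 TPM, while the Chm transcript has 15 exons. Chml held 76.5 to 79.3% of the TPM of this pair in controls and 76.4 to 78.2% with ethanol. Rab33a on the X was at 0.168 TPM and the autosomal Rab33b at 10.4 TPM. The other X-linked members were Rab9 at 8.62, Rab9b at 0.722 and Rab39b at 0.269 TPM, and the autosomal Rab39 was as low, at 0.381 TPM.

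The diet comparison covered 64 members, tested together with all 25073 genes of sufficient count; log2 ratios are ethanol over control from the edgeR fit. By edgeR (quasi-likelihood F-test, p adjusted by Benjamini-Hochberg over all tested genes), 0 members were called higher and 0 lower at an adjusted p of 0.05, where the share called among all tested genes was also 0% in each direction. At an unadjusted p under 0.05, edgeR had 3 members higher and 1 lower, with 7.45% and 5.89% of all tested genes in those directions. DESeq2 called 0 members higher and 1 lower (1.11% and 0.695% of the genes it adjusted), and limma-voom 0 and 0 (0.012% and 0.00798%). The 3 ethanol libraries lay above the 3 controls for 10 members and below them for 2, while 9.76% and 9.01% of all tested genes did so. Log2 ratios were above 0 for 38 of the 64, with 51.5% of all tested genes above 0, and their median was 0.05 beside 0.0065 for all. Leaving out ethanol library 2 took the members' median to -0.0090. Without control library 1, 0 members were on the higher side at the unadjusted p, and without control library 2 there were 5; without ethanol library 3 there was 1. On the lower side there were 2 without control library 2, control library 3, ethanol library 1 or ethanol library 3. The median standard error of a member's log2 ratio was 0.10.

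**Figure D3:**
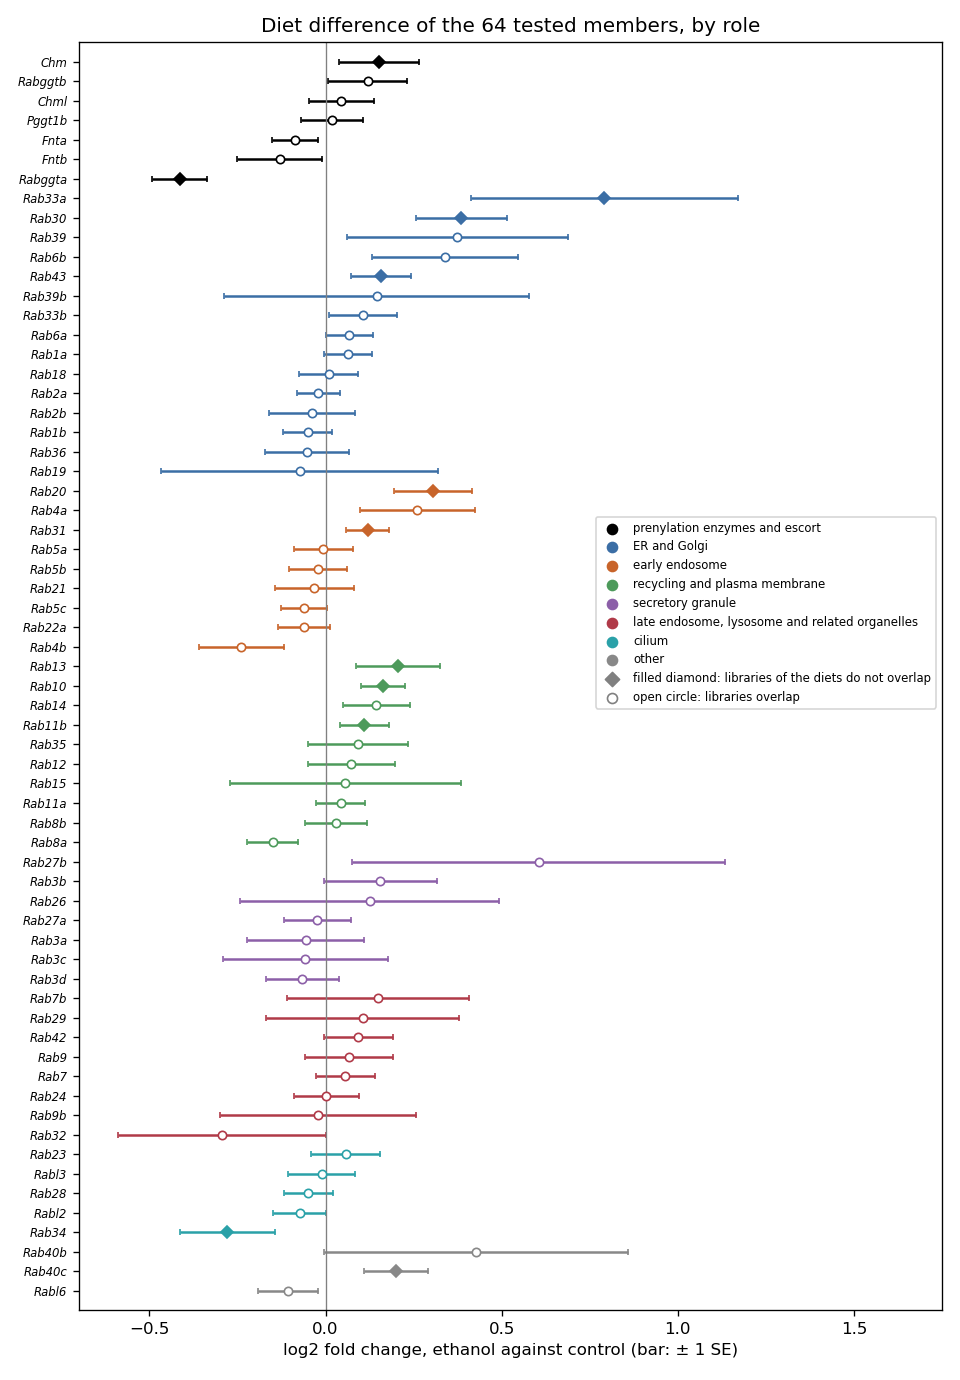
Log2 ratio of ethanol against control (horizontal axis; bars, ± 1 standard error from the edgeR fit) for the 64 tested members, grouped and coloured by role. Filled diamonds mark genes whose 3 ethanol libraries do not overlap the 3 controls; Rabggta and Rab34 are on the lower side, and most members lie near 0.

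Libraries held between 38935654 and 47420249 counts, and the members took 0.149 to 0.155% of them. Markers of the testis were present: protamine, transition protein and fibre genes of elongating spermatids summed to 10956 to 13848 CPM (counts scaled to library size with TMM factors), while epididymis markers summed to at most 0.609 CPM, with 1 of 4 at 0 in every library. The summed levels of 6 other marker lists did not overlap between the diets, and each list was also summed without each marker in turn, a check chosen after seeing the data. The 10 Sertoli cell markers, all above 0 in log2 ratio, summed to 893.4 to 963.1 CPM in controls and 1047 to 1187 CPM in ethanol libraries. The 6 spermatocyte markers, with 0 above 0, summed to 1246 to 1268 and 1109 to 1176 CPM, and the 6 round spermatid markers, also with 0 above 0, to 1010 to 1143 and 972.4 to 1003 CPM. The 5 macrophage markers, 4 of them above 0, summed to 81.3 to 87.3 and 93.6 to 100.8 CPM. Without Mrc1 the macrophage sums overlapped, at 27.0 to 30.7 and 27.9 to 29.9 CPM, and C1qa lay lower in every ethanol library, with a log2 ratio of -0.44. Endothelial markers (3 of 4 above 0) summed to 15.0 to 16.0 and 16.96 to 19.8 CPM, and erythroid markers (5 of 5) to 28.4 to 44.4 and 56.6 to 69.1 CPM. The sums also overlapped without Cdh5 for the endothelium and without Tex21 or Acr for round spermatids. None of the markers in these 6 lists was at 0 in every library. With all markers included, the sums of the other lists overlapped between the diets. Of these, the adipocyte list had 5 of 5 markers above 0, and ethanol library 1 stood apart at 27.9 CPM, beside 10.8 to 17.2 CPM in the other 5 libraries, with Fabp4 at 10.02 CPM. The Leydig list summed to 585.1 to 622.1 and 492.8 to 616.3 CPM, and within it Cyp11a1 had a log2 ratio of -1.30 without overlap. Without Star the Leydig sums separated, at 454.8 to 515.1 CPM in controls and 382.1 to 450.2 CPM in ethanol libraries. Spermatogonia sums separated without Id4, at 62.7 to 69.9 and 70.2 to 77.3 CPM. Peritubular myoid sums separated without Myh11, at 48.35 to 49.8 and 50.6 to 56.9 CPM. The low epididymis sums separated without Defb20, at 0.128 to 0.270 and 0 to 0.122 CPM. In whole testis, fewer cells of a type and less RNA per cell cannot be told apart, and the part of cell composition in the differences described next was not tested.

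Rabggta had the clearest separation of the diets among the 7 enzyme and escort genes. Rabggta (Gene ID 56187; chromosome 14, 55715864 to 55722263 on mm10) stood at 27.96, 26.6 and 28.1 CPM in controls 1, 2 and 3, against 21.9, 20.4 and 19.8 CPM in ethanol libraries 1, 2 and 3. All ethanol libraries were below all controls, by more than the spread within either diet. The means were 27.6 ± 0.81 CPM and 20.7 ± 1.11 CPM (SD, n = 3), giving a log2 ratio of -0.41 (SE 0.08) and a change of -25.0%. It kept its sign under all 19 alternatives, between -0.46 without ethanol library 1 and -0.34 on log2(TPM + 1). By edgeR it was not called (adjusted p = 0.131), and DESeq2 alone called it lower. Of all tested genes, 9.01% also had all ethanol libraries below all controls. No other gene of GENCODE M21 overlaps Rabggta.

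Its partner subunit did not show the same pattern. Rabggtb (Gene ID 19352; chromosome 3, 153907289 to 153912966) was at 11.4, 9.94 and 10.7 CPM in controls and 13.1, 11.1 and 10.7 CPM in ethanol libraries. Ethanol library 1 was high and the diets overlapped, with a log2 ratio of 0.12 (SE 0.11) that moved to 0.03 without that library, the library highest in adipocyte markers, whose part in the result was not tested. Rabggtb carries snoRNA genes within its bounds, so its value could include reads of these. In TPM, Rabggta exceeded Rabggtb by ratios of 1.45, 1.61 and 1.54 in controls 1, 2 and 3. With ethanol the ratios were 1.0004, 1.08 and 1.099. The ratios did not overlap; since the set was chosen with this comparison known, they were not tested.

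The escort genes differed little. Chm was at 5.92, 6.49 and 6.28 CPM in controls and 6.55, 7.27 and 6.92 CPM in ethanol libraries. The lowest ethanol library was just above the highest control, and the log2 ratio was 0.15 (SE 0.11). Chml overlapped, at 28.6 ± 2.22 and 29.5 ± 2.92 CPM (SD, n = 3), and its log2 ratio of 0.04 (SE 0.09) turned to -0.04 without ethanol library 2. Chml lies within the bounds of Opn3 on the same strand, and reads could be counted for either.

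The genes of the CAAX enzymes overlapped between the diets throughout. Fnta was at 118.2, 107.7 and 112.5 CPM in controls and 100.05, 110.3 and 108.3 CPM in ethanol libraries, giving a log2 ratio of -0.09 (SE 0.07). Fntb, the beta subunit of farnesyltransferase, was at 5.32, 5.18 and 5.53 CPM and 5.24, 4.73 and 4.68 CPM, with a log2 ratio of -0.13 (SE 0.12). Pggt1b, the beta subunit of geranylgeranyl transferase type I, was at 25.7 ± 1.52 and 26.0 ± 2.38 CPM (SD, n = 3). Its log2 ratio of 0.02 (SE 0.09) turned to -0.06 without ethanol library 2. Per length, Fnta at 109.2 TPM far exceeded both of its partners, Fntb at 3.82 and Pggt1b at 7.31 TPM. Fntb overlaps Churc1, a protein-coding gene on the same strand, and reads could be counted for either.

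**Figure D4:**
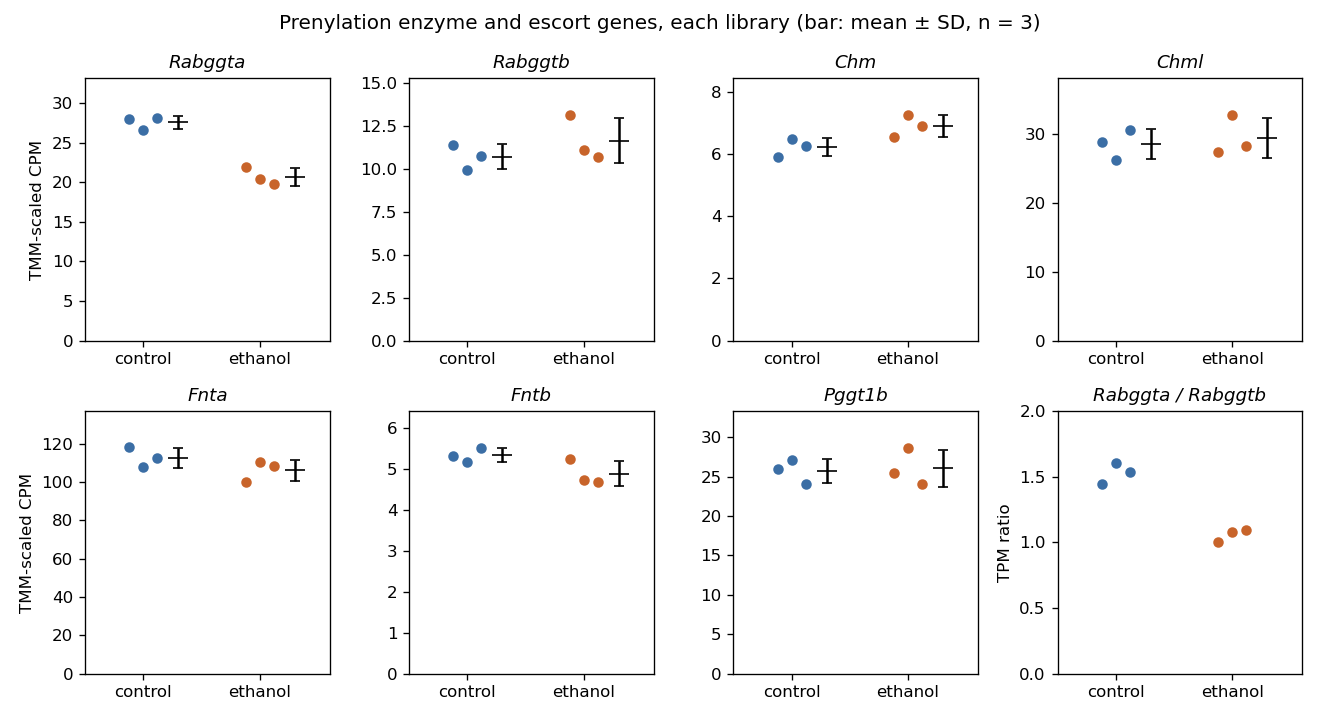
TMM-scaled CPM of the 7 enzyme and escort genes in each library (points, left to right libraries 1, 2 and 3 of each diet; bars, mean ± SD, n = 3), and the ratio of Rabggta to Rabggtb in TPM in the last panel. Rabggta separates the diets, at 26.6 CPM or more in controls and 21.9 CPM or less with ethanol, and Rabggtb does not.

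Of the 57 tested Rab and Rab-like genes, 9 had all ethanol libraries above all controls and 1 had them below, which makes 17.5% beside 18.8% of all tested genes. Rab30 (Gene ID 75985; chromosome 7, 92741637 to 92844535), a Golgi Rab, was at 6.35, 7.98 and 6.47 CPM in controls and 9.67, 9.38 and 8.11 CPM in ethanol libraries. Control library 2 came close to ethanol library 3, and the log2 ratio of 0.39 (SE 0.13) ranged from 0.12 on log2(FPKM + 1) to 0.50 without control library 2. Rab20 (Gene ID 19332; chromosome 8, 11453390 to 11478640), which acts in phagosome maturation and endosomes, was at 7.31, 8.02 and 7.55 CPM and 8.94, 9.01 and 10.3 CPM. Its log2 ratio was 0.31 (SE 0.11). Rab10 (Gene ID 19325; chromosome 12, 3247428 to 3309969), known for insulin-driven transport of the glucose transporter to the cell surface, was at 47.4, 46.4 and 46.4 CPM and 53.6, 51.1 and 52.4 CPM. The spread within each diet was narrow for Rab10, and the log2 ratio was 0.16 (SE 0.06). These 3 were the members on the higher side at an unadjusted p under 0.05.

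Differences without overlap were also seen in 5 more Rab genes above a mean of 1 CPM, each with an unadjusted p above 0.05 by edgeR. Rab40c, whose protein joins a cullin ubiquitin ligase through a SOCS box, was at 12.4, 13.6 and 12.7 CPM in controls and 14.1, 15.5 and 14.8 CPM in ethanol libraries, giving a log2 ratio of 0.20 (SE 0.09). Rab31, of transport from the Golgi to endosomes, was at 82.5, 77.5 and 80.1 CPM and 86.9, 84.3 and 89.6 CPM, giving a log2 ratio of 0.12 (SE 0.06). Rab13, which takes part in the delivery of tight junction proteins, was at 5.77, 5.43 and 5.34 CPM and 5.94, 6.31 and 6.82 CPM, giving a log2 ratio of 0.21 (SE 0.12). In each of these the gap between the diets was small beside the spread within them. For the Golgi gene Rab43 the gap was narrower still, between control library 1 at 23.70 CPM and ethanol library 1 at 23.75 CPM. Its log2 ratio of 0.16 (SE 0.09) was 0.08 without ethanol library 3. Rab43 overlaps Gm45140, a protein-coding gene model on the same strand, and reads could be counted for either. For Rab11b, of recycling endosomes, the highest control was at 39.1 CPM and the lowest ethanol library at 39.8 CPM, with a log2 ratio of 0.11 (SE 0.07). In TPM Rab11b overlapped, with control library 2 at 15.6 and ethanol library 2 at 15.2. Rab33a also did not overlap, at 0.256, 0.203 and 0.235 CPM and 0.504, 0.320 and 0.390 CPM. Its log2 ratio of 0.79 had a standard error of 0.38 and rested on 9 to 20 reads per library.

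Rab34 was the Rab gene with all ethanol libraries below all controls in CPM, a separation that was lost in TPM, where ethanol library 1 at 6.89 lay above control library 1 at 6.31. Its protein is needed for cilia that begin to form inside the cell. It stood at 5.71, 5.55 and 6.16 CPM in controls and 5.51, 4.55 and 4.29 CPM in ethanol libraries. Ethanol library 1 was close to the lowest control, and the log2 ratio of -0.28 (SE 0.13) was -0.39 without that library. The other cilium genes lay near 0 and overlapped, at -0.05 (SE 0.07) for Rab28, -0.07 (SE 0.08) for Rabl2, 0.06 (SE 0.10) for Rab23 and -0.01 (SE 0.09) for Rabl3. The sign turned under at least 1 alternative for Rab23 and Rabl3. Rabl6 was at 61.8 ± 6.52 and 57.4 ± 4.09 CPM (SD, n = 3), with control library 3 highest at 68.98 CPM and a log2 ratio of -0.11 (SE 0.09).

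**Figure D5:**
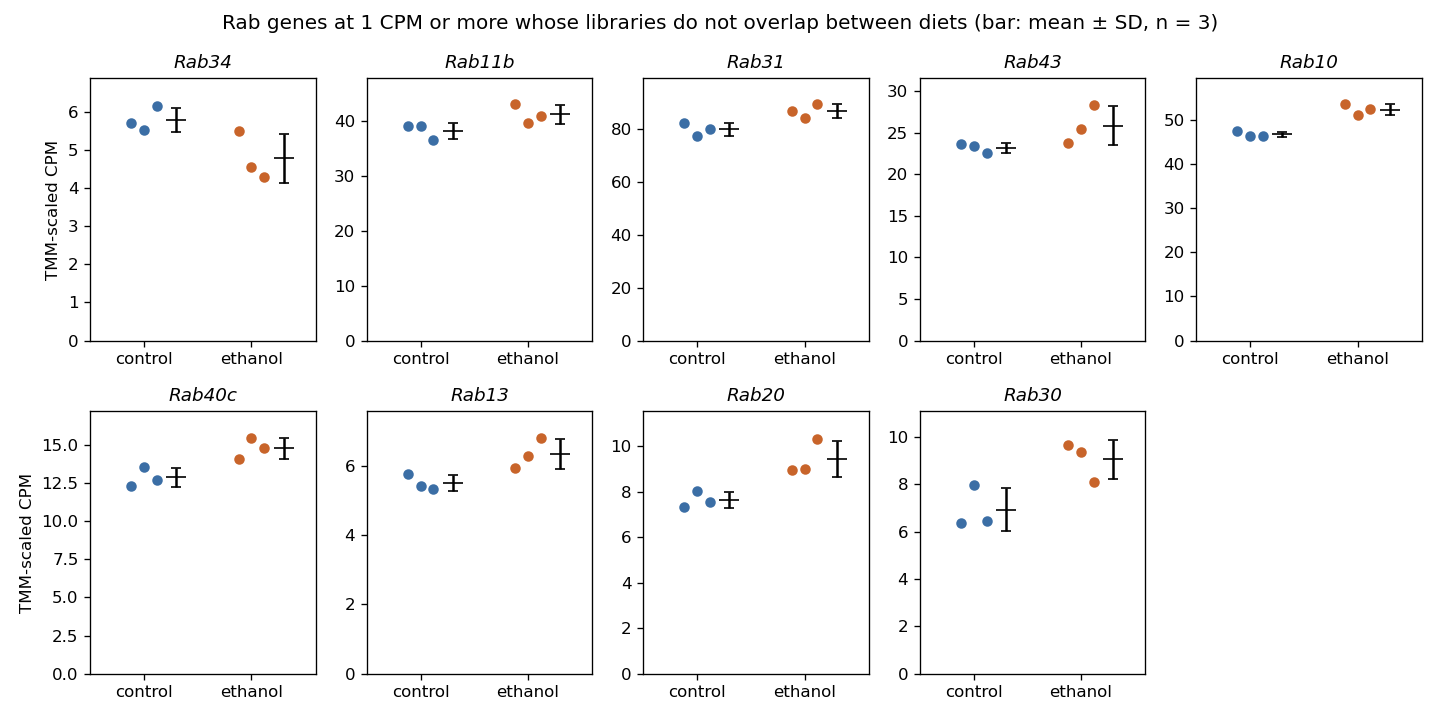
TMM-scaled CPM of the 9 Rab genes above a mean of 1 CPM whose 3 ethanol libraries do not overlap the 3 controls (points, left to right libraries 1, 2 and 3; bars, mean ± SD, n = 3). Rab34 is lower with ethanol, the other 8 are higher, and in Rab43, Rab11b and Rab34 the nearest libraries of the diets almost touch.

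Some paralogs had values of opposite sign. Rab4a was at 4.53, 5.32 and 4.28 CPM in controls and 6.70, 4.48 and 5.77 CPM in ethanol libraries, giving a log2 ratio of 0.26 (SE 0.16) that moved to 0.12 without ethanol library 1 and to 0.40 without ethanol library 2. Rab4b was at 13.7, 12.2 and 11.45 CPM and 10.98, 9.03 and 11.65 CPM, giving a log2 ratio of -0.24 (SE 0.12) that was -0.14 without ethanol library 2. Both encode Rabs of rapid recycling from early endosomes, and both overlapped between the diets. The share of Rab4a in the TPM of the pair was 20.9 to 26.2% in controls and 28.8 to 33.4% with ethanol. Each of the pair overlaps another protein-coding gene model on the same strand, Gm20388 for Rab4a and Gm21983 for Rab4b, and reads could be counted for either. Rab8a, of exocytosis and cilia, was at 46.3, 41.9 and 45.5 CPM and 38.2, 42.0 and 40.3 CPM, giving a log2 ratio of -0.15 (SE 0.07), and Rab8b had 0.03 (SE 0.09), which turned sign under at least 1 alternative. Control library 2 of Rab8a lay among the ethanol values.

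Of the Rab genes of highest TPM, the 6 given next overlapped between the diets. Log2 ratios were -0.06 (SE 0.07) for Rab22a, -0.02 (SE 0.06) for Rab2a, -0.05 (SE 0.07) for Rab1b, 0.04 (SE 0.07) for Rab11a, -0.06 (SE 0.07) for Rab5c and 0.07 (SE 0.07) for Rab6a. The sign turned under at least 1 alternative for Rab2a, Rab1b and Rab11a. Rab6b, the scarcer Rab6 paralog, was at 1.88, 2.50 and 1.72 CPM and 3.20, 2.17 and 2.36 CPM. Its log2 ratio of 0.34 (SE 0.21) was 0.16 without ethanol library 1 and 0.51 without control library 2.

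By role, medians of the tested genes lay between -0.05 and 0.20. They were 0.07 for the 15 genes of the ER and Golgi, -0.02 for 9 of early endosomes, 0.08 for 10 of recycling and the plasma membrane, -0.02 for 7 of secretory granules, 0.06 for 8 of late endosomes and lysosomes and -0.05 for the 5 cilium genes. The 7 enzyme and escort genes had 0.02. The upper end of 0.20 was that of only 3 genes placed in none of these roles, Rab40b, Rab40c and Rabl6. Of the recycling genes 9 of 10 were above 0, with Rab8a below, beside 51.5% of all tested genes above 0. Among those above 0, Rab11a, Rab12, Rab15, Rab35 and Rab8b turned sign under at least 1 alternative. By coding end, the 46 tested genes with a pair of cysteine codons had a median of 0.07 with 28 above 0, and the 8 tested genes with a lone CAAX cysteine codon a median of 0.04 with 6 above 0.

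The remaining 5 members had too few reads for the test. Rab17, a Rab of epithelial cells, had 0, 0 and 0 counts in the control libraries and 4, 4 and 5 in the ethanol libraries. The limit of 3 counts that a total of 0 over the control libraries allows came to 0.0222 CPM. Its 13 ethanol reads came to 0.105 CPM, which was 4.74-fold higher. That ratio allows for counting error in the controls alone, so it is not a lower limit, and it was not tested. Rab25 had 0, 5 and 0 counts and 0, 0 and 4, Rab37 had 3, 0 and 3 and 0, 0 and 4, and Rab44 had 3, 2 and 0 and 0, 5 and 0. Rab38 had 5 counts in control library 1 and 0 elsewhere.

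The proteins that regulate Rabs were followed in 5 lists. In none did edgeR call a gene in either direction at an adjusted p of 0.05, and counts at the unadjusted p of 0.05 are given beside the 7.45% higher and 5.89% lower of all tested genes. Of 8 genes for extraction and recycling of Rabs, 0 were higher and 1 was lower, with a median log2 ratio of -0.07. Gdi2, which extracts GDP-bound Rabs from membranes, was abundant at 204.8 ± 1.03 CPM in controls and 214.9 ± 4.24 CPM in ethanol libraries (SD, n = 3), giving a log2 ratio of 0.07 (SE 0.05). Yipf1, a Golgi membrane protein, had -0.23 (SE 0.08). Rabac1, which binds prenylated Rabs, had -0.14 (SE 0.09). DESeq2 and limma-voom called 0 genes of this list.

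Of the 55 tested exchange factors, which load Rabs with GTP, 5 were higher and 4 lower at the unadjusted p, with a median of -0.0037. Rin1, an exchange factor for Rab5 proteins, was at 23.4 ± 0.23 CPM in controls and 17.8 ± 2.23 CPM in ethanol libraries (SD, n = 3; log2 ratio -0.40, SE 0.10, edgeR adjusted p = 0.153), and DESeq2 called it lower. Hps4, part of an exchange factor for Rab32 and Rab38, had -0.20 (SE 0.06), and Ric1, part of that for Rab6 proteins, 0.21 (SE 0.07). Dennd5a, a DENN domain protein, had 0.23 (SE 0.06). Of the 39 tested GTPase-activating proteins, which switch Rabs off, 5 were higher and 4 lower, with a median of 0.011. Tbc1d4, which acts on Rab10 in the response to insulin, was at 13.6 ± 1.31 and 18.4 ± 0.72 CPM (SD, n = 3; log2 ratio 0.44, SE 0.10, edgeR adjusted p = 0.153). Evi5 had 0.24 (SE 0.06), Tbc1d2, which acts on Rab7, -0.33 (SE 0.09), and Tbc1d9 -0.31 (SE 0.09). DESeq2 called Tbc1d4 higher and Tbc1d2 lower, and limma-voom called 0 genes of either list.

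Of 66 effectors, which bind active Rabs, 10 were higher and 2 lower at the unadjusted p, with a median of 0.04. Uso1, a Golgi tether that binds Rab1, was at 17.4 ± 1.19 CPM in controls and 22.0 ± 0.70 CPM in ethanol libraries (SD, n = 3; log2 ratio 0.33, SE 0.08, edgeR adjusted p = 0.162). Sytl4, a Rab27 effector of secretory granules, had 0.40 (SE 0.11), and was the effector that DESeq2 called, while limma-voom called 0. On the lower side stood Rab11fip5, which binds Rab11, at -0.16 (SE 0.06) and Rufy1, which binds Rab4, at -0.24 (SE 0.10). Without control library 1 the effector median was 0.0024. Of 22 genes for isoprenoid supply and CAAX processing, 0 were higher and 0 lower at the unadjusted p, by edgeR, and DESeq2 and limma-voom called 0; the median was -0.06. Ggps1, the synthase of the geranylgeranyl donor, was at 22.8 ± 1.90 and 25.2 ± 0.78 CPM (SD, n = 3), giving a log2 ratio of 0.14 (SE 0.08). Unc119, which binds lipid-modified proteins, had 0.12 (SE 0.09), Pde6d, which carries prenylated proteins, -0.17 (SE 0.08), and Arl3, which releases its cargo, -0.16 (SE 0.08).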

How the data were processed

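Per the labels' protocols, ribosomal RNA was removed from whole-testis RNA and the libraries are stranded. The submitters' processing notes name HISAT2 and mm10. How reads were assigned to genes, with which annotation and strand option, is not given in the sources here, which leaves overlapping genes and close paralogs uncertain. Of the 69 members, 38 overlap another annotated gene. The deposited read counts are whole numbers without normalization, and FPKM and TPM were computed by the authors, per the file headers. All 18 value columns were matched to the 6 samples by the labels. In all 15 pairs of libraries counts differed by more than sampling noise (lowest chi-square per gene 7.66, expected 1).

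The counts were tested with edgeR 4.0.16 in R 4.3.3 (filterByExpr, TMM, quasi-likelihood F-test, Benjamini-Hochberg over 25073 genes), a procedure tested on simulated data. Single values of 3 against 3 libraries cannot go below an exact permutation p of 0.1, and none was tested. Standard errors were derived as the log2 ratio over the root of F. Alternatives were RLE, upper-quartile and total-count scaling, 2 filters, DESeq2 1.42.0, limma-voom and limma-trend (limma 3.58.1) on log2 TPM or FPKM with a pseudocount of 1 or 0.1, the replicate number as a block, and each library left out; protein-coding genes alone was added after seeing the data. Coordinates are RefSeq's on GRCm38.p6, by Gene ID for all 69 members; coding ends are from GENCODE M21, with the principal transcript of each gene.

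The members, roles and lists were chosen with earlier results of these data known. Named were all enzyme genes, the 6 members of largest log2 ratio in each direction at 1 CPM or more, up to 10 in each direction without overlap, the 12 of highest TPM, Rab-like genes, paralogs, and from each regulator list the 2 of smallest p in each direction. Rab33a, Rab23, the 5 untested members and single cell type markers were named after their values were seen. A regulator gene that this rule names is not reported here.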

Additional observations from a re-analysis of the deposited data

How the results depend on the processing

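Over all genes edgeR called 0 higher and 0 lower; upper-quartile scaling and the filter of 1 CPM each gave 2 higher, limma-voom 3 higher and 2 lower, DESeq2 203 and 127, and fits without 1 library 0 to 1 and 0 to 2. Members were called by DESeq2 alone, 1 lower (Rabggta). Members at an unadjusted p under 0.05 on the higher side numbered 5 with total counts and on log2(FPKM + 0.1), and 0 to 5 without 1 library; on the lower side 1 to 2. Members below all controls numbered 1 with total counts or in TPM, where Rab34 overlapped. The members' median was 0.075 with total counts, 0.072 on log2(TPM + 1), 0.103 on log2(TPM + 0.1), and -0.0090 to 0.054 without 1 library. On log2(TPM + 1) and log2(TPM + 0.1) medians were 0.053 and 0.058 for exchange factors, 0.053 and 0.058 for GTPase-activating proteins, 0.068 and 0.095 for effectors and -0.00889 and -0.0093 for isoprenoid genes, on scales where the median of all genes was 0.044 and 0.058. Exchange factors had 0.026 on log2(FPKM + 0.1), and isoprenoid genes -0.035 with total counts and -0.032 on log2(FPKM + 1). Without 1 library, medians ranged from 0.0024 to 0.060 for effectors and from -0.082 to -0.038 for isoprenoid genes. DESeq2 called 1 exchange factor lower, 1 GTPase-activating protein higher and 1 lower, and 1 effector higher. Of the 64 members, 35 kept their sign under all 19 alternatives, 22 above 0 and 13 below, and 29 turned under at least 1. The cause of these shifts was not tested.

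Same-numbered libraries of the diets did not deviate together (correlations of -0.06, 0.0029 and 0.13), so the numbers were not taken as pairs. With the replicate block edgeR called 5 genes higher and 10 lower over all genes, and 0 members in either direction. With 3 libraries per diet and a median standard error of 0.10, small differences between the diets in a single member were not detectable.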
